A study of Mus musculus with 48 samples.

Results

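Guanylate-binding proteins (GBPs) and immunity-related GTPases (IRGs) were followed as 10 named genes of the 35870 in the count table. They were 7 GBP genes (Gbp2, Gbp3, Gbp4, Gbp5, Gbp6, Gbp7 and Gbp9) and 3 IRG genes (Irgm1, Igtp and Iigp1), chosen by symbol, and all 10 passed the filter on low counts in both kinds of sample. Polyadenylated RNA was read in 6 groups of 8 libraries, from sorted brain microglia (Cd11b+ and Cd45+ cells) and from whole spinal cord. All mice were wild-type C57BL/6 males carrying no modified allele. Old repopulated mice (23 months) were dosed for 5 days with an inhibitor of Csf1r, the receptor microglia depend on for survival, and were sampled after 7 days of recovery. Old mice (23 months) and young mice (3 months) were given vehicle. The sort gate takes in other Cd11b+ Cd45+ cells besides microglia, and whole cord holds every cell type of the tissue. Whether each library came from its own mouse is not stated in the labels, and the p-values then cover only the variation among the libraries at hand.

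GBPs are large GTPases of the dynamin superfamily, and IRGs are smaller GTPases. Both families are induced strongly by interferon-gamma, in part through the transcription factor Irf1, and also by type I interferons. In infected mouse cells they coat and break the vacuoles that hold intracellular microbes. GBPs also help bacterial products reach inflammasomes in the cytosol. Irgm1 and Igtp (also called Irgm3) sit on the cell's own membranes and hold effector IRGs such as Iigp1 (also called Irga6) in an inactive state there. In the brain these genes are best known from infection, where interferons switch them on in microglia and other cells.

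In the GENCODE M21 annotation of GRCm38, Gbp2, Gbp3, Gbp5 and Gbp7 lie together on chromosome 3 and Gbp4, Gbp6 and Gbp9 together on chromosome 5. Irgm1 and Igtp are on chromosome 11. RefSeq promoters (build GRCm38.p6) were matched for 6 of the 10 genes, Gbp2, Gbp3, Gbp5, Gbp7, Irgm1 and Igtp, and not for Gbp4, Gbp6, Gbp9 and Iigp1. Short words were searched on both strands of the 250 bases before each start. The interferon-stimulated response element (ISRE) was searched as a GAAA pair with any 2 bases between, and the gamma-activated site (GAS) as TTCNNNGAA. The 6 genes have 7 promoter entries, as Gbp3 has a second one, which holds neither word. An ISRE word was found in the other 6 entries, 1 for each gene, against 2.98% of 32851 promoters. A GAS word was found in 3 of the 7 (Gbp5, Gbp7 and Igtp), against 7.02% of promoters, and both words together stand in 0.332% of promoters. The sequences of Gbp3 and Irgm1 are shown because these genes differed most firmly between repopulated and old libraries, and those of Gbp5 and Igtp because their changes differed between microglia and cord. Capitals mark the ISRE and GAS words. The sequences run 5′ to 3′ on the gene's strand, from chr3:142559794-142560043 (plus strand) for Gbp3, chr11:48871421-48871670 (minus strand) for Irgm1, chr3:142496684-142496933 (plus strand) for Gbp5 and chr11:58199306-58199555 (plus strand) for Igtp.
Gbp3 promoter: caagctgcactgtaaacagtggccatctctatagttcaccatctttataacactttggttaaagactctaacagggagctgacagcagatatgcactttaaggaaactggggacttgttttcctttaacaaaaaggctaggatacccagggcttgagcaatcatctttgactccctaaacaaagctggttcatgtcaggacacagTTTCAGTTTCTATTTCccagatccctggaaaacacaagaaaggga
Irgm1 promoter: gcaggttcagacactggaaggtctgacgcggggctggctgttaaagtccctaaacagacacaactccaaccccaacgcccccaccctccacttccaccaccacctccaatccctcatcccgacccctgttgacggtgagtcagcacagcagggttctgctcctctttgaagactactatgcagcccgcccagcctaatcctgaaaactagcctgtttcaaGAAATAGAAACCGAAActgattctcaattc
Gbp5 promoter: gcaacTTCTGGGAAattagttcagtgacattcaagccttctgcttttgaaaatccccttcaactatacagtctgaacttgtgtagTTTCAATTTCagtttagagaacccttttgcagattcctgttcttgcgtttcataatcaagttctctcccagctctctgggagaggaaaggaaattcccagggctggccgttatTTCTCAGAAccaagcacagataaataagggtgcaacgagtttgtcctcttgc
Igtp promoter: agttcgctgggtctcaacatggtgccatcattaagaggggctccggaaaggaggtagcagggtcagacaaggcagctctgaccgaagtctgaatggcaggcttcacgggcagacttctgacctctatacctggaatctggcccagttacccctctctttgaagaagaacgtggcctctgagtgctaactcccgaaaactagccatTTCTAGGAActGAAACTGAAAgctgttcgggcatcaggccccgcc
In Gbp3 a pair of overlapping ISRE words lies 45 to 30 bases before the start, and in Irgm1 another overlapping pair lies 30 to 15 bases before it. The Igtp promoter holds its ISRE word 34 to 25 bases before the start, just after a GAS word at 45 to 37 bases. In Gbp5 the ISRE word lies farther out, at 165 to 156 bases, with GAS words at 245 to 237 and at 52 to 44 bases. A word match describes the letters in the window and does not show binding. Reads of some members may be shared with close copies, as 12.8% of the 50-base words of Gbp4, 12.8% of those of Gbp7 (mostly with the pseudogene Gm43802), 12.3% of those of Igtp (with Irgm2) and 9.56% of those of Gbp9 also stand in another gene, against 0.814% for Irgm1 and 0.234% for Gbp5.

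Depth was between 23808223 and 31414974 counts in repopulated, 18741936 and 27755121 in old and 28373152 and 34496308 in young microglia libraries. The cord libraries held 15909868 to 33004806 counts in repopulated, 22802459 to 31075737 in old and 23756093 to 32172147 in young mice. In counts scaled to library size (CPM), the 10 microglia markers summed to between 35921 and 44315 CPM in repopulated, 36534 and 44870 CPM in old and 52219 and 61316 CPM in young sorted cells, against 220 to 524 CPM over the cord libraries. Old microglia replicates 2 and 7 were left out together after the data were seen. Without both of them the Gbp7 call between old and young microglia ended (-0.27, adjusted p = 0.11) and Gbp4 was called (2.06, adjusted p = 0.023). Both are among the old libraries lowest in Gbp4. Repopulated cord replicate 6 stood apart in its summed oligodendrocyte markers (30778 CPM, against a group median of 17728.7 CPM). It was also the highest of its group in the summed markers of microglia (524.3 CPM), astrocytes (7620.4 CPM), endothelium (633.9 CPM), neutrophils (364.7 CPM) and monocytes (122.2 CPM). Without it 3 members passed between old and young, 3 between repopulated and old and 10 between repopulated and young cord.

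Per transcript length, Igtp and Irgm1 were the most abundant of the 10 in microglia, and levels are given here as read counts per gene length scaled to the same total in each library (TPM, mean ± SD of 8 libraries). Igtp averaged 79.2 ± 9.49 TPM in repopulated, 96.0 ± 7.81 in old and 93.6 ± 5.49 in young microglia, and 34.8 ± 13.7 in repopulated, 20.2 ± 5.24 in old and 17.1 ± 5.23 TPM in young cord. Every microglia library lay above every cord library for Igtp, while Irgm1 kept the same order of tissues with some overlap between young microglia and repopulated cord. Irgm1 averaged 68.2 ± 4.98 TPM in repopulated, 58.9 ± 7.02 in old and 46.5 ± 4.35 in young microglia, against 33.7 ± 7.93 in repopulated, 23.8 ± 2.27 in old and 18.3 ± 2.67 TPM in young cord. In microglia these levels of the regulatory IRGs stood far above those of the effector Iigp1, which averaged 4.76 ± 1.45 TPM in repopulated, 5.81 ± 2.51 in old and 1.10 ± 0.756 in young microglia. In cord Iigp1 averaged 14.3 ± 8.12 in repopulated, 6.50 ± 1.96 in old and 5.03 ± 1.84 TPM in young libraries. In repopulated cord the ranges overlapped, with Iigp1 up to 29.6 TPM, Irgm1 from 21.1 TPM and Igtp from 23 TPM.

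Among the GBPs, Gbp5 was the most abundant in young microglia at 21 ± 3.62 TPM, followed by Gbp2 at 13.8 ± 4.15, Gbp7 at 13.8 ± 2.87, Gbp3 at 13.5 ± 1.42 and Gbp9 at 11.1 ± 1.75 TPM. Gbp4 and Gbp6 were the lowest members in microglia, between 0.398 and 1.23 TPM for the group means of Gbp4 and between 0.345 and 2.26 TPM for those of Gbp6. In cord both were higher, with group means of 10.7 ± 6.61 in repopulated, 6.34 ± 1.71 in old and 4.68 ± 1.32 TPM in young cord for Gbp4, and of 7.08 ± 2.32 in repopulated, 4.76 ± 0.829 in old and 3.11 ± 0.77 TPM in young cord for Gbp6. The order of the 6 groups differed between members. Repopulated cord was the highest group for Gbp2, Gbp3, Gbp4, Gbp6, Gbp9 and Iigp1, young microglia for Gbp5 and Gbp7, repopulated microglia for Irgm1 and old microglia for Igtp. Neighbouring groups in these orders overlapped, except young cord above old microglia for Gbp4, old above young microglia for Gbp6, repopulated microglia above repopulated cord for Igtp and repopulated above young microglia for Iigp1.

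**Figure D1:**
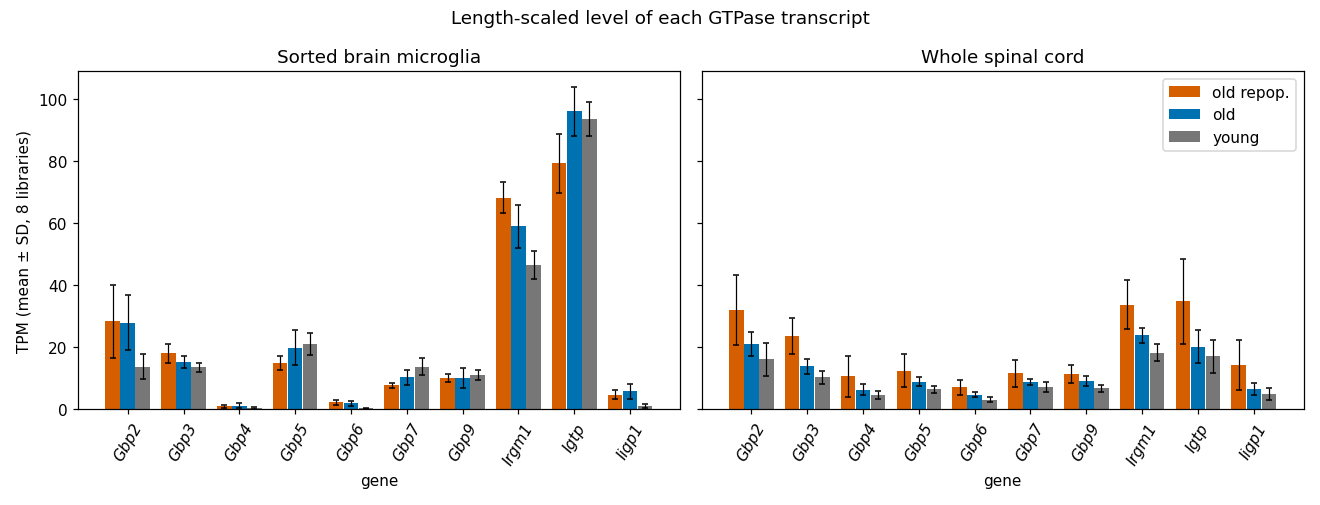
Length-scaled level (TPM, y axis) of the 10 genes in sorted brain microglia (left) and whole spinal cord (right); bars are means and error bars SDs of 8 libraries of old repopulated, old and young mice. Igtp (79.2 to 96.0 TPM) and Irgm1 (46.5 to 68.2 TPM) stand out in microglia, while Gbp4 and Gbp6 are near the axis there.

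Part of the set differed with age in microglia. Old microglia had more Gbp2, Gbp6, Irgm1 and Iigp1 transcript than young ones and less Gbp7, while Gbp3, Gbp4, Gbp5, Gbp9 and Igtp did not pass the test (edgeR quasi-likelihood test, adjusted p under 0.05 over 14382 genes). These 5 calls among 10 members, 4 higher and 1 lower, stand against 21.7% of all genes tested, of which 11% were higher and 10.7% lower. The median log2 change was 0.34 over the 10 members and -0.01 over all genes. In CPM groups did not overlap for 2 members, Gbp6 and Irgm1, against 4.12% of all genes, while in TPM the Irgm1 groups overlapped.

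Values in CPM scaled by the TMM method (trimmed mean of M-values) are given as the lowest, median and highest of 8 libraries. Gbp6 had 2.51, 5.48 and 11 CPM in repopulated, 1.89, 3.76 and 7.52 in old and 0.216, 0.596 and 1.26 CPM in young microglia. The 8 old libraries all lay above the 8 young ones, and the log2 change with age was 2.58 (SE 0.37, adjusted p = 3.5e-06). Most of the Gbp6 transcript (90.2% of its 50-base words) is shared with the neighbouring predicted gene Gm43302, so its reads may be split between the pair. Iigp1, the effector IRG, had 5.23, 8.37 and 12.6 CPM in repopulated, 2.63, 8.39 and 14.4 in old and 0.277, 1.09 and 3.21 CPM in young microglia. Only the lowest old library, replicate 1, fell inside the young range, and the change was 2.45 (SE 0.37, adjusted p = 7.4e-06).

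Gbp2, which in mouse cells is recruited to the vacuoles of parasites and bacteria, had 23, 32.4 and 75.6 CPM in repopulated, 14.7, 27.6 and 39.7 in old and 9.72, 11.6 and 21.9 CPM in young microglia. Old and young libraries overlapped at the low end of the old group, and the log2 change was 1.08 (SE 0.22, adjusted p = 0.00049). Irgm1 had 75.1, 90.2 and 110 CPM in repopulated, 56.9, 66.7 and 71.1 in old and 40.8, 51.3 and 54.4 CPM in young microglia. For Irgm1 the 3 groups were fully separate in CPM, with old above young by 0.40 on the log2 scale (SE 0.08, adjusted p = 0.00026).

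Gbp7, which in mouse macrophages aids assembly of the phagocyte oxidase, went the other way. Its values were 17.4, 22.5 and 26.2 CPM in repopulated, 14.4, 25 and 32.5 in old and 22.4, 30.6 and 39.8 CPM in young microglia, with overlap between all groups. Old against young gave a log2 change of -0.35 (SE 0.13, adjusted p = 0.048), a call that ended in 24 of 33 alternative analyses, among them total-count scaling (adjusted p = 0.091). Gbp5, a GBP tied to inflammasome assembly in mouse macrophages, had 17.4, 23.3 and 26.6 CPM in repopulated, 19.3, 24.7 and 35.9 in old and 21.1, 24.6 and 31.5 CPM in young microglia. The 3 ranges of Gbp5 lay on top of each other, and the age change was -0.03 (SE 0.12, adjusted p = 0.92).

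Igtp, at 70.4, 79.5 and 93.3 CPM in repopulated, 73.4, 81.9 and 99.5 in old and 65.6, 76.3 and 92.7 CPM in young microglia, also kept overlapping ranges, with an age change of 0.10 (SE 0.08, adjusted p = 0.41). Gbp9 had 24.3, 28 and 33.9 CPM in repopulated, 14.3, 23.6 and 31.1 in old and 22.7, 23.8 and 29.2 CPM in young microglia, where the old libraries spread over both sides of the young ones (log2 change -0.08, SE 0.13, adjusted p = 0.75). Gbp3 had 21.2, 28.4 and 40.2 CPM in repopulated, 16.4, 20.8 and 26.4 in old and 15.4, 17.3 and 21.4 CPM in young microglia. Its repopulated median was the highest of the 3, with overlap between repopulated and old libraries, and old against young (0.27, SE 0.12) missed the threshold at an adjusted p of 0.13.

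Gbp4 was at the edge of detection in the sorted cells, at 0.645, 2.36 and 4.33 CPM in repopulated, 0, 3.6 and 5 in old and 0, 0.821 and 1.49 CPM in young microglia. Old replicates 1, 2 and 7 were at 0, 0.773 and 0.295 CPM and the other 5 old libraries at 3.46 CPM or more. The age change was 1.71 (SE 0.68, adjusted p = 0.07), and it passed the threshold without old replicates 2 and 7 (2.06, adjusted p = 0.023). Those replicates are among the old libraries lowest in Gbp4 and were left out after the data were seen, so that result adds no support.

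**Figure D2:**
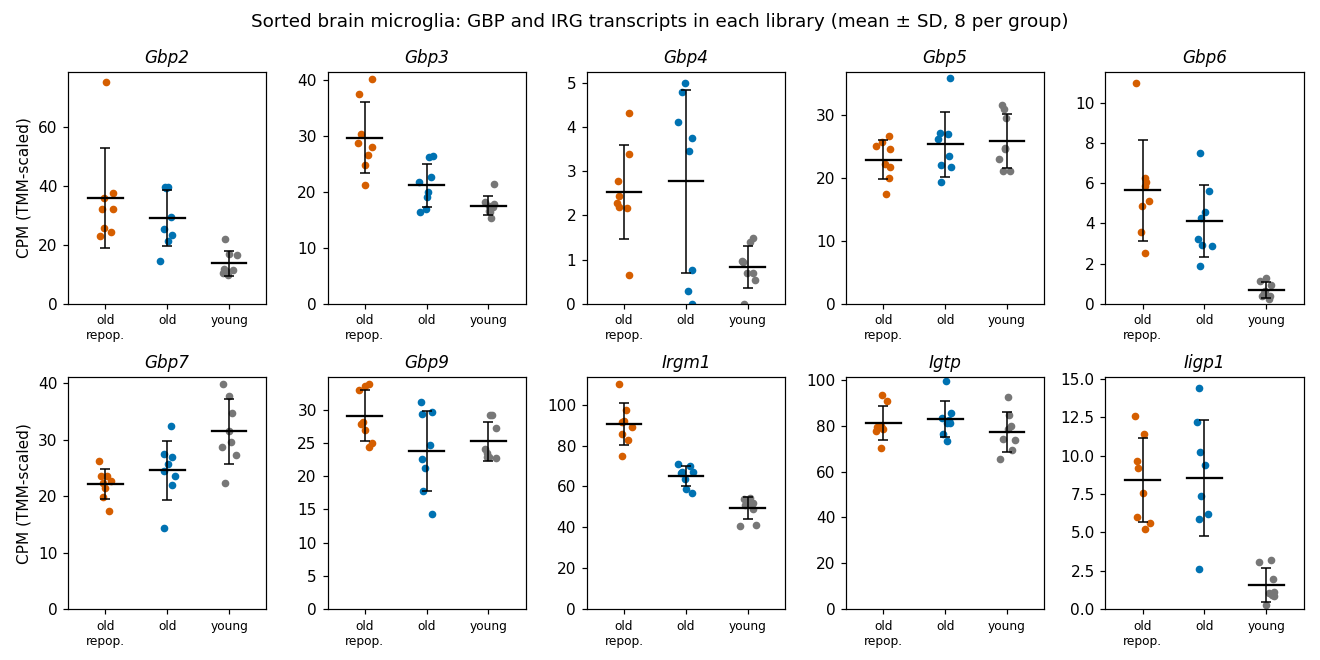
CPM (TMM-scaled, y axis) of each gene in every library of old repopulated, old and young microglia (x axis); points are libraries, thick lines means and bars SDs (8 per group). Irgm1 steps between 3 separate groups, Gbp2, Gbp6 and Iigp1 are higher in both old groups than in young microglia, and Gbp5 and Igtp overlap throughout.

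Microglia that had repopulated the old brain carried more Irgm1 and more Gbp3 than old microglia, and the other 8 members did not pass the test. These 2 calls among 10 stand against 16.2% of all genes called in either direction, which is close to that background, and 9.05% called higher. Irgm1 was higher by 0.47 on the log2 scale (SE 0.08, adjusted p = 5.9e-05), with every repopulated library above every old one in CPM, a separation seen in 2.09% of all genes, while in TPM the groups overlapped. Gbp3 was higher by 0.49 (SE 0.12, adjusted p = 0.0058), a difference of 0.21 on log2(TPM + 1) with limma that did not pass (adjusted p = 0.11). The other members high with age did not pass the test here, with changes of 0.30 for Gbp2 (SE 0.22, adjusted p = 0.4), 0.46 for Gbp6 (SE 0.35, adjusted p = 0.42) and -0.02 for Iigp1 (SE 0.35, adjusted p = 0.98). Igtp (-0.03, SE 0.08, adjusted p = 0.84) was called lower under total-count scaling (-0.19, adjusted p = 0.048), which put the median of all genes at -0.21 in place of -0.04. On log2(TPM + 1) with limma, where that median was also -0.21, Igtp (-0.28, adjusted p = 0.0026) and Gbp5 (-0.36, adjusted p = 0.038) were called lower.

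Against young microglia, repopulated microglia had 5 higher members (Gbp2, Gbp3, Gbp6, Irgm1 and Iigp1) and 1 lower member (Gbp7), where 32.7% of all genes were called, 16.1% as higher and 16.5% as lower. The log2 changes were 3.04 for Gbp6 (SE 0.38, adjusted p = 1.2e-07), 2.43 for Iigp1 (SE 0.37, adjusted p = 4.3e-06) and 1.38 for Gbp2 (SE 0.23, adjusted p = 1.1e-05). Irgm1 was higher by 0.88 (SE 0.08, adjusted p = 2.1e-10) and Gbp3 by 0.76 (SE 0.12, adjusted p = 1.2e-05), while Gbp7 was at -0.51 (SE 0.13, adjusted p = 0.0025). The repopulated and young groups did not overlap in CPM for Gbp2, Gbp6, Irgm1 and Iigp1, against 7.2% of all genes. In TPM the Gbp2 groups overlapped. The remaining 4 had values of 1.58 for Gbp4 (adjusted p = 0.073), 0.21 for Gbp9 (adjusted p = 0.24), 0.07 for Igtp (adjusted p = 0.53) and -0.17 for Gbp5 (adjusted p = 0.31), and on log2(TPM + 1) with limma Igtp (-0.24, adjusted p = 0.0035) and Gbp5 (-0.46, adjusted p = 0.0051) were called lower, where the median over all genes was -0.28. In both tissues the comparisons of old with young and of repopulated with old share the old libraries, so their values are given side by side and not set against each other.

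In repopulated microglia replicate 1 was the highest library for 5 of the 10 members, Gbp2 (75.6 CPM, with the next at 37.7), Gbp3 (40.2 CPM), Gbp6 (11 CPM, next 6.28), Irgm1 (110 CPM) and Iigp1 (12.6 CPM). It was not the highest for Gbp4, Gbp5, Gbp7, Gbp9 and Igtp. The same library held 203 reads of Cd8a, a T cell surface gene chosen after its values were seen, against 0 to 22 in the other 7, and its 15 T and NK cell markers summed to 34.4 CPM, against 2.46 to 8.32 CPM in those. Without it the counts were 4 members between old and young, 2 between repopulated and old and 6 between repopulated and young microglia. Over the groups the T and NK sums were 2.46 to 34.4 CPM in repopulated (median 5.31), 7.53 to 40.7 in old (median 12.9) and 2.35 to 24.9 CPM in young microglia (median 5.82), with Ncr1 at 0 in the old libraries. Markers of other sorted myeloid cells moved with the groups as well. The 10 neutrophil markers summed to 814 to 3628 CPM in repopulated, 2063 to 8899 in old and 225 to 1025 CPM in young microglia, and the 10 monocyte markers to 161 to 397 CPM in repopulated, 414.8 to 948.2 in old and 101 to 213 CPM in young microglia. The 10 border macrophage markers summed to 133 to 311.5 CPM in repopulated, 329 to 642 in old and 156 to 402 CPM in young microglia. The part of these cells in the values of the members was not tested.

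In spinal cord all 10 members were higher by their estimates in old than in young mice, and 3 of them passed the test, against 6.15% of all 18271 genes tested (4.88% higher). Positive estimates were found for 47.3% of all genes. As the members varied together within cord groups, their 10 signs are not separate observations. The old and young ranges overlapped for every member, and for 2.45% of all genes the old group lay wholly above the young one. The 3 were Gbp6 (0.59, SE 0.16, adjusted p = 0.019), Gbp9 (0.38, SE 0.11, adjusted p = 0.04) and Irgm1 (0.35, SE 0.10, adjusted p = 0.029). The median over the members was 0.37 and that over all genes -0.01. Without old cord replicate 3 the edgeR count was 0 (5 at an unadjusted p under 0.05), with Gbp6 at 0.51 (adjusted p = 0.054), Gbp9 at 0.34 (adjusted p = 0.091) and Irgm1 at 0.31 (adjusted p = 0.073). Both limma analyses on TPM also gave 0 (6 at an unadjusted p under 0.05), and the DESeq2 Wald test on all libraries gave 3. In whole cord, fewer cells of a type and less RNA per cell cannot be told apart, and the 10 microglia markers summed to 373 to 524 CPM in repopulated, 330 to 422.2 in old and 220 to 308 CPM in young cord. The 15 T and NK cell markers summed to 5.34 to 10.2 CPM in repopulated, 3.55 to 10.5 in old and 1.91 to 5.77 CPM in young cord, and of the 5 that could be tested 2 were called higher in old than in young cord. The part of these cells in the members' change with age was not tested.

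Irgm1 had 23.2, 34.6 and 38.7 CPM (lowest, median and highest) in repopulated, 18.9, 21.2 and 25.5 in old and 14.7, 15.9 and 22.1 CPM in young cord. Gbp3 had 17.8, 30.1 and 37.5 CPM in repopulated, 13.3, 14.2 and 20.3 in old and 8.42, 10.9 and 15.1 CPM in young cord. For both genes every repopulated library lay above every young one in CPM, and replicate 7 alone among the repopulated libraries fell inside the old range. In TPM repopulated replicate 6 had Irgm1 at 21.1, below the highest young value of 24.2. Its Gbp3 value of 17.5 TPM lay inside the old range (12.3 to 18.6 TPM). Gbp6 had 8.48, 12.8 and 16.5 CPM in repopulated, 6.05, 7.9 and 10.7 in old and 3.58, 5.08 and 7.6 CPM in young cord, and its repopulated and young ranges did not meet in CPM. In TPM they did, with repopulated replicate 6 at 2.64 and young libraries up to 4.41.

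Iigp1 had 7.07, 15.6 and 36.2 CPM in repopulated, 4.57, 7.92 and 11.7 in old and 3.51, 5.5 and 9.62 CPM in young cord. Igtp had 15.9, 24.7 and 41.2 CPM in repopulated, 10.9, 13.1 and 22.1 in old and 7.48, 11.4 and 17.8 CPM in young cord. Gbp4 had 10.1, 16.9 and 46.9 CPM in repopulated, 7.78, 11 and 18 in old and 5.94, 7.74 and 13.4 CPM in young cord. In these 3 genes the repopulated group was the widest, with its highest value above the old range and its lowest inside it.

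Gbp2 had 16.2, 29 and 39.6 CPM in repopulated, 14.2, 16.9 and 24.8 in old and 8.38, 12.5 and 22 CPM in young cord. Gbp5 had 8.52, 12.9 and 23.9 CPM in repopulated, 7.99, 8.49 and 11.9 in old and 5.94, 6.53 and 9.77 CPM in young cord. The repopulated group was again the highest and widest for both. Gbp7 had 15.4, 23.1 and 35.7 CPM in repopulated, 14.8, 17 and 20 in old and 10.5, 14.9 and 18.1 CPM in young cord, and Gbp9 had 16.8, 23.9 and 29.1 in repopulated, 13.8, 17.4 and 21.9 in old and 10.3, 13.2 and 17.5 CPM in young cord. Between repopulated and old cord the ranges overlapped for all 10 members, and 0.0493% of all genes had the repopulated group wholly above the old one.

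**Figure D3:**
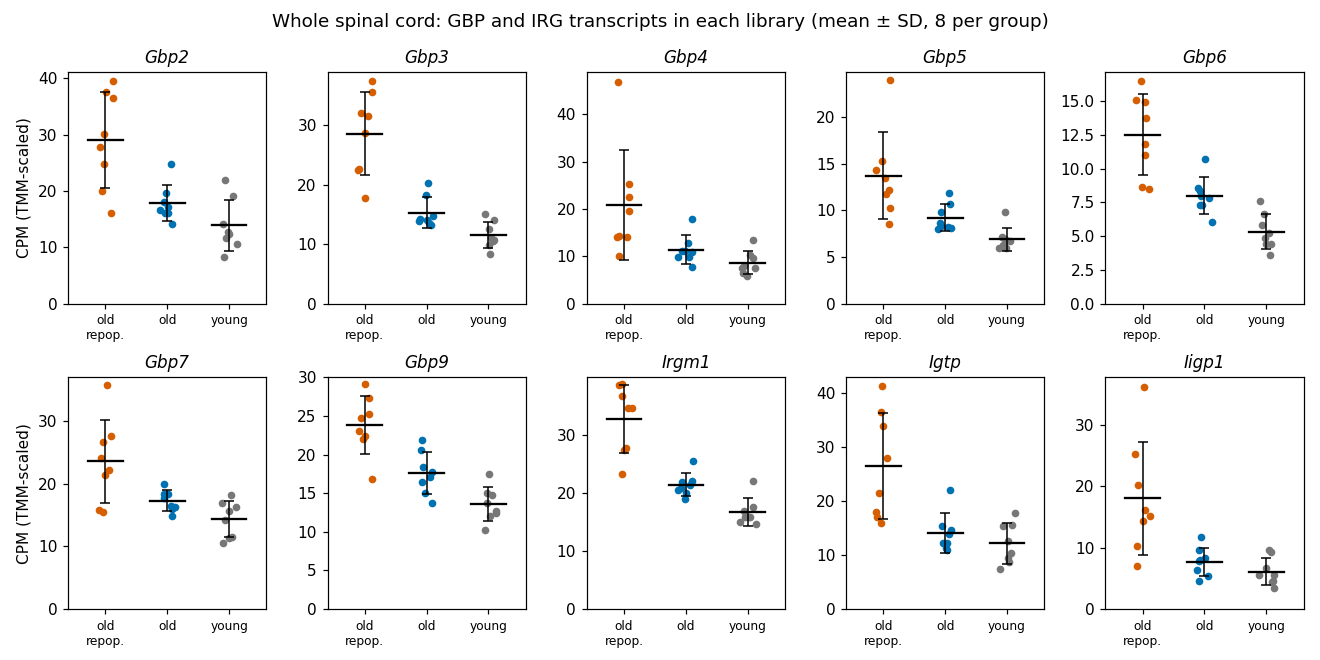
CPM (TMM-scaled, y axis) of each gene in every library of old repopulated, old and young spinal cord (x axis); points are libraries, thick lines means and bars SDs (8 per group). The mean is highest in repopulated, next in old and lowest in young cord in all 10 panels, and the repopulated libraries spread widest, with Iigp1 between 7.07 and 36.2 CPM.

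Repopulated cord differed from old cord at few genes, and members of the set were among them. Of 18271 genes tested 27 were called, all of them higher, which is 0.148%, and Gbp3 and Irgm1 were 2 of the 27. Gbp3 was higher by 0.89 (SE 0.14, adjusted p = 0.0043), rank 4 by p among all genes, and Irgm1 by 0.61 (SE 0.10, adjusted p = 0.0043), rank 8. The members varied together in cord, so their signs are not separate observations. All 10 members had positive estimates, against 52.1% of all genes, with a median of 0.67 over the members and 0.01 over all genes. The other 8 ran from 0.43 for Gbp9 (SE 0.11, adjusted p = 0.19) to 1.22 for Iigp1 (SE 0.27, adjusted p = 0.074), with Igtp at 0.91 (SE 0.21, adjusted p = 0.1), Gbp4 at 0.85 (SE 0.24, adjusted p = 0.3), Gbp2 at 0.70 (SE 0.18, adjusted p = 0.23), Gbp6 at 0.64 (SE 0.15, adjusted p = 0.11), Gbp5 at 0.57 (SE 0.15, adjusted p = 0.27) and Gbp7 at 0.45 (SE 0.14, adjusted p = 0.47). With the DESeq2 Wald test 7 members passed (Gbp2, Gbp3, Gbp6, Gbp9, Irgm1, Igtp and Iigp1), without repopulated replicate 7 again 7, and without old replicate 3 it was 4. On log2(TPM + 1) with limma 1 member passed, Gbp3, with Irgm1 at 0.45 (adjusted p = 0.28).

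Against young cord all 10 members were higher in repopulated cord, where 10.1% of all genes were called and 7.28% were called higher. The changes ran from 0.72 for Gbp7 (SE 0.14, adjusted p = 0.00092) to 1.56 for Iigp1 (SE 0.27, adjusted p = 0.00023), with a median of 1.09. The Gbp7 call ended on log2(TPM + 1) with limma (0.55, adjusted p = 0.087). Gbp3 was higher by 1.30 (SE 0.14, adjusted p = 3.1e-07), Gbp6 by 1.23 (SE 0.16, adjusted p = 2.5e-06) and Irgm1 by 0.97 (SE 0.10, adjusted p = 1.2e-07). These 3 were the members whose groups did not overlap in CPM, against 2.96% of all genes. In TPM the groups overlapped for Gbp6 and Irgm1. Gbp4 was higher by 1.27 (SE 0.25), Igtp by 1.12 (SE 0.21), Gbp2 by 1.07 (SE 0.19), Gbp5 by 0.99 (SE 0.16) and Gbp9 by 0.81 (SE 0.11). The microglia markers moved with this comparison, as 7 of the 10 were called higher in repopulated than in young cord and 1 of 10 in repopulated than in old cord. Of the 5 T and NK cell markers tested, 3 were called higher in repopulated than in young cord. The part of cell numbers was not tested.

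The spread among repopulated cord libraries was shared by the members. Replicate 1 was among the top 3 of the 8 libraries for all 10 members and replicate 4 for 8 of them, while replicate 7 was among the bottom 3 for all 10 and the lowest for 8. The members' CPM summed to 324 in replicate 1 and 287 in replicate 4, and to 141 in replicate 7. The T and NK cell markers in those libraries summed to 5.97, 6.52 and 5.34 CPM and the microglia markers to 403.6, 376.3 and 373.2 CPM. These libraries were picked by the members' values. Over all 8 repopulated libraries the T and NK sums ran from 5.34 to 10.2 CPM and the microglia sums from 373 to 524 CPM, the last in replicate 6. The part of cell numbers in this spread was not tested.

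The change with age and with repopulation was then compared between the tissues by a test of the difference itself over all 48 libraries and 19110 genes, as microglia minus cord. For old against young the difference was called for 5 members, against 20.5% of all genes (5.44% higher in microglia and 15% lower). Gbp6 (1.84, SE 0.39, adjusted p = 0.00041) and Iigp1 (1.96, SE 0.47, adjusted p = 0.0021) changed more in microglia. Gbp5 (-0.61, SE 0.20, adjusted p = 0.025), Gbp7 (-0.79, SE 0.20, adjusted p = 0.0041) and Gbp9 (-0.62, SE 0.19, adjusted p = 0.014) had a lower change in microglia than in cord. With DESeq2 size factors, total-count scaling or no low-count filter the calls of Gbp5 (adjusted p = 0.14, 0.17 and 0.15) and Gbp9 (adjusted p = 0.066, 0.1 and 0.077) ended. The median over all genes was -0.15, against -0.19 over the members.

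For repopulated against old the difference was called for 3 members, against 11% of all genes, and all 3 were lower in microglia than in cord, as were 7.54% of all genes. They were Igtp (-0.97, SE 0.23, adjusted p = 0.0052), Gbp5 (-0.74, SE 0.20, adjusted p = 0.015) and Gbp7 (-0.64, SE 0.20, adjusted p = 0.034). The Gbp7 call ended with no low-count filter (-0.57, adjusted p = 0.073) and with the replicate number as a block (-0.61, adjusted p = 0.057). The median over all genes was -0.1 in this contrast, against -0.54 over the members. For repopulated against young the difference was called for 6 members, against 29.6% of all genes (6.11% higher and 23.5% lower). Here the median over all genes was -0.27, against -0.51 over the members, so part of each value is shared by all genes. Gbp6 changed more in microglia (1.64, SE 0.38, adjusted p = 0.00093), and Gbp7 (-1.43, SE 0.20, adjusted p = 3.5e-07), Gbp5 (-1.35, SE 0.20, adjusted p = 8.6e-07), Igtp (-1.24, SE 0.23, adjusted p = 3.8e-05), Gbp9 (-0.80, SE 0.19, adjusted p = 0.00081) and Gbp3 (-0.73, SE 0.19, adjusted p = 0.0025) had a lower change there, where the Gbp3 call ended with no low-count filter (-0.53, adjusted p = 0.055). For Irgm1 (-0.28 to -0.11), Gbp2 (-0.43 to 0.57) and Gbp4 (-1.06 to 1.16) the difference between the tissues was not called in these 3 contrasts.

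**Figure D4:**
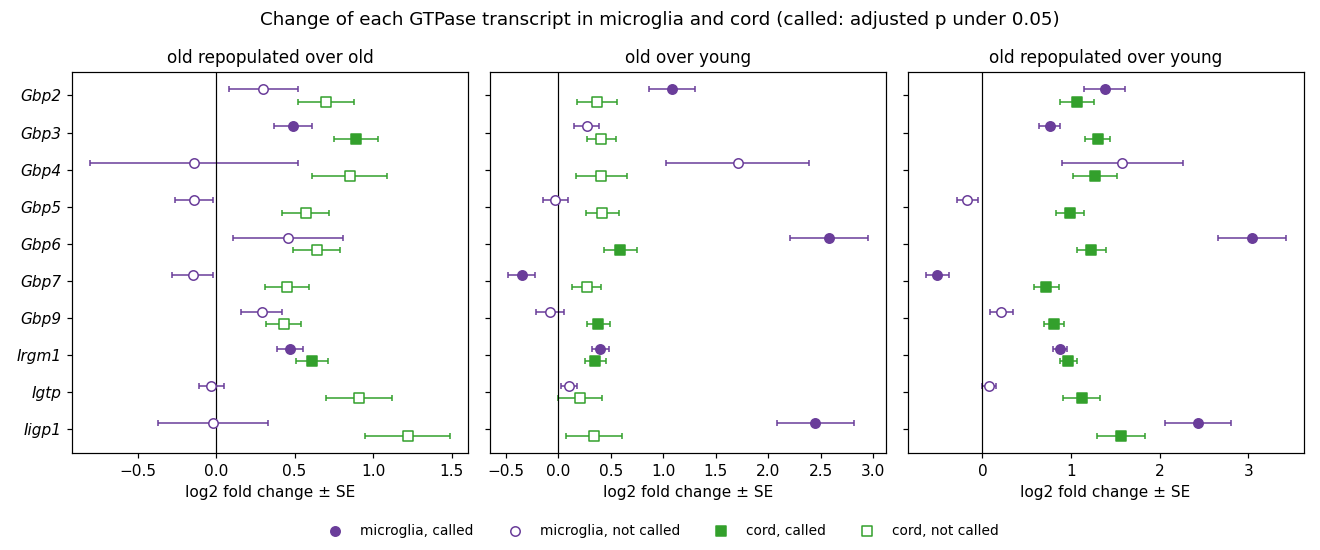
Log2 fold change (x axis, bars ± SE) of each gene (rows) in microglia (circles) and cord (squares) for old repopulated over old, old over young and old repopulated over young; filled symbols were called. The cord symbols all lie right of 0, while Gbp5, Gbp7 and Igtp in microglia lie near 0 or left of it.

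Between young sorted microglia and young cord all 10 members differed in the edgeR test, where 84.3% of all genes did, 35.4% being higher and 48.9% lower in microglia, with a median over all genes of -0.48. Igtp (3.53, SE 0.18), Gbp5 (2.76, SE 0.15), Irgm1 (2.42, SE 0.09), Gbp7 (2.01, SE 0.15), Gbp9 (1.76, SE 0.13) and Gbp3 (1.46, SE 0.14) were higher in microglia, and Gbp4 (-2.47, SE 0.51), Gbp6 (-2.10, SE 0.28) and Iigp1 (-1.12, SE 0.34) were lower. Gbp2 (0.85, SE 0.23, adjusted p = 0.00069) was called higher in microglia, but not with DESeq2 size factors (0.38, adjusted p = 0.11) or total-count scaling (0.04, adjusted p = 0.88). The 3 members lower in young microglia than in young cord include Gbp6 and Iigp1, the pair with the largest called rises with age in microglia. Both comparisons use the same young microglia libraries, so low values there enter both. Sorted cells and frozen cord also differed in RNA extraction, which cannot be told apart from the tissue.

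Within groups the members varied together in cord more than in microglia, given as a description over 24 libraries of each tissue after centring each group. The 45 pairs had a median Pearson r of 0.70 in cord (0.36 to 0.91, with 40 pairs over 0.5) and of 0.21 in microglia (-0.29 to 0.69, with 5 pairs over 0.5). The highest pair was Gbp2 with Iigp1 in both tissues, at 0.91 in cord and 0.69 in microglia. Igtp with Gbp9 was the lowest pair in cord (0.36), and Gbp4 with Gbp5 in microglia (-0.29), where Gbp4 rests on few reads. Libraries share their depth and RNA quality across genes, which such values include.

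**Figure D5:**
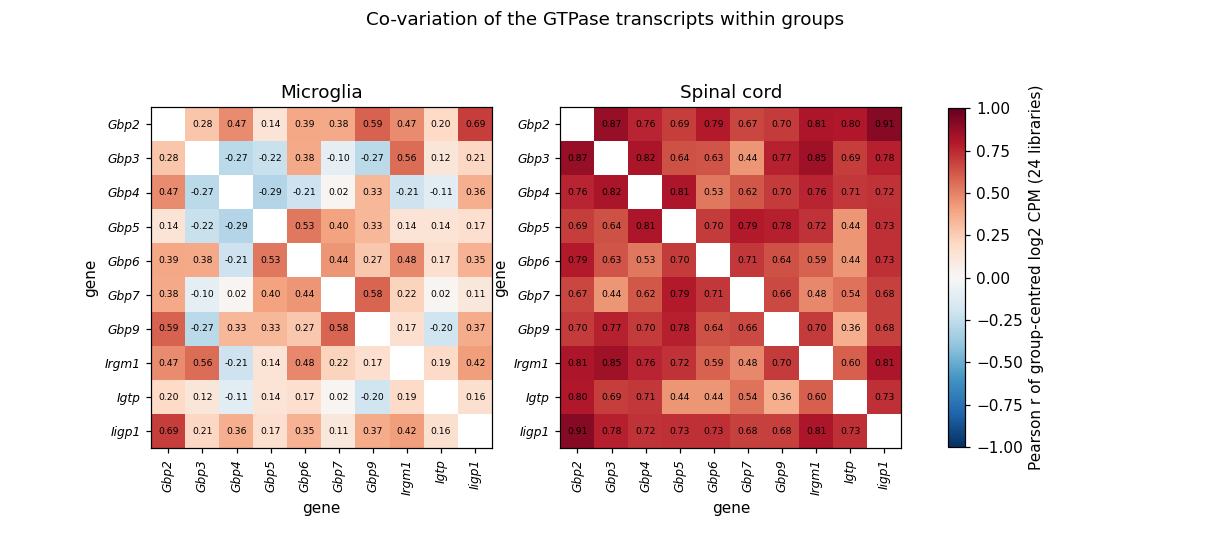
Pearson r between each pair of the 10 genes (rows and columns) for log2 CPM centred within groups, over 24 microglia libraries (left) and 24 cord libraries (right); the color scale runs from -1 to 1. Cord is red throughout (0.36 to 0.91), while microglia pairs run from -0.29 to 0.69.

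Genes outside the set whose within-group pattern was among the most like the mean of the members were, in cord, Irgm2 (r = 0.89, Spearman's rho = 0.82, and r = 0.83 without the 2 farthest libraries), Nlrc5 (0.89, rho 0.75, 0.83), Irf1 (0.83, rho 0.84, 0.82) and Parp12 (0.82, rho 0.89, 0.77). In microglia they were LOC102639543 (0.78, rho 0.74, 0.67), Nabp1 (0.76, rho 0.72, 0.60), Nxt1 (0.72, rho 0.61, 0.58), Apobec3 (0.69, rho 0.52, 0.47) and Ifi213 (0.68, rho 0.66, 0.62). They are among the 5 highest r in each tissue over 24 libraries, of genes averaging 5 CPM or more there. Picking the highest of many genes raises such r, and no chance level was computed. In microglia the members' own pairs had a median r of only 0.21.

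Other genes of the families and of the pathway were read from lists, and those named have small adjusted p in their list, not always its largest changes. Of all genes, 21.7% were called with age and 16.2% between repopulated and old microglia. In cord 6.15% were called with age, 0.148% between repopulated and old and 10.1% between repopulated and young. Of the 11 other GBP and IRG genes tested in microglia, 4 rose and 2 fell with age. The risers were the IRGs Gm4951 (2.02, SE 0.20), Tgtp2 (1.84, SE 0.29), Ifi47 (1.75, SE 0.27) and Gm12250 (0.65, SE 0.14), and Irgm2 fell by 0.23 (SE 0.08, adjusted p = 0.026), along with Irgq. Irgm2, the third regulatory IRG beside Irgm1 and Igtp, averaged 82.8 ± 10.1 CPM in repopulated, 94.5 ± 9.57 in old and 111 ± 7.56 CPM in young microglia, and shares 12.3% of the 50-base words of Igtp. Between repopulated and old microglia Gm12250 rose (0.47, SE 0.14, adjusted p = 0.017) and Irgq fell. In cord Gbp11 rose with age (0.57, SE 0.12), Gbp10 was higher in repopulated than in old cord (1.94, SE 0.39, adjusted p = 0.039), and 8 of 12 rose and 1 fell between repopulated and young cord, with Irgm2 at 1.07 (SE 0.18).

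Interferon-gamma itself was near the limit of detection. Ifng had 3 reads in 1 of 24 microglia libraries and 20 reads in 10 of 24 cord libraries, and it did not pass the filter. Among genes of the interferon-gamma receptor and its signalling, the receptor chain Ifngr1 (-0.39, SE 0.06) and the kinase Jak1 (-0.27, SE 0.06) fell with age in microglia, and the receptor chain Ifngr2 (0.34, SE 0.06) rose between repopulated and old microglia. Irf1, an inducer of the GTPases, was not called in microglia (0.09 with age and -0.13 between repopulated and old). In cord Irf8 (1.20, SE 0.14), Ptpn6 (0.89, SE 0.11) and Irf1 (0.35, SE 0.10) rose with age.

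Targets of both interferons outside the GTPases were read in the same comparisons. Of 13 interferon-gamma-linked targets in microglia 9 rose with age, among them the antigen presentation activator Nlrc5 (1.96, SE 0.17), Cd274 (1.07, SE 0.13) and the peptide transporter Tap1 (0.60, SE 0.10). Between repopulated and old microglia 4 rose, among them Tap1 (0.86, SE 0.10), and Ciita fell (-1.47, SE 0.42). In cord 6 of 15 such targets rose with age, 0 were called between repopulated and old, and 9 rose and 1 fell between repopulated and young. Of 7 genes of the type I interferon receptor and its signalling, 4 rose with age in microglia, among them the regulators Usp18 (1.66, SE 0.19) and Irf7 (1.78, SE 0.20), and 5 rose between repopulated and old microglia, among them Irf7 (1.41, SE 0.20) and Stat2 (0.69, SE 0.11). Of 17 type I interferon targets 15 rose with age in microglia, among them Ifit2 (1.80, SE 0.16) and Oas1a (1.74, SE 0.17), and 14 rose between repopulated and old, among them Oas1a (1.20, SE 0.16). In cord 3 of the 17 rose with age. Between repopulated and old cord 7 rose, among them Oas2 (0.96, SE 0.16) and Ifi44 (1.32, SE 0.21), and 16 rose between repopulated and young cord. The regulators Irf7 (1.65, SE 0.23) and Irf9 (0.54, SE 0.08), with Usp18 (1.10, SE 0.20), were among the 27 genes of repopulated against old cord that also hold Gbp3 and Irgm1.

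Genes whose products act with the GTPases were read as well. The 13 autophagy and ubiquitin partners, which load GTPases on vacuoles, had a median age change of 0.07 in microglia, and between repopulated and old microglia Gabarap rose (0.49, SE 0.11) while Sqstm1 (-0.25, SE 0.06), Gabarapl1 (-0.34, SE 0.10) and Atg7 (-0.29, SE 0.09) fell. Of 9 inflammasome partners, Il1b (2.38, SE 0.25) and Casp4 (0.85, SE 0.17), the sensor of bacterial lipopolysaccharide downstream of GBPs, rose with age in microglia, and Nlrp3 fell (-0.32, SE 0.08). In cord 5 of the 9 rose with age, among them Casp4 (1.22, SE 0.16) and Pycard (1.19, SE 0.17). Of 10 GTPases of the dynamin superfamily outside the GBPs, Dnm2 fell with age in microglia (-0.37, SE 0.06) and Atl2 rose between repopulated and old microglia (0.38, SE 0.12). That is 1 of 10 in each comparison, below the 21.7% and 16.2% of all genes called. Of the 13 autophagy and ubiquitin partners 1 rose and 3 fell between repopulated and old microglia, against the same 16.2%. The 9 inflammasome partners had 2 higher calls and 1 lower call with age in microglia, against 21.7%.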

How the data were processed

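The authors deposited whole-number read counts per gene, and TPM, which a test on the tables found to be those counts per gene length with each library rescaled (largest difference 5e-04). The deposited FPKM were not used. TruSeq version 2 chemistry, which does not keep the strand, was used per the labels' protocols. STAR 2.5.2b and GRCm38.p5 appear in the submitters' processing notes without a role, and for the counting tool the sources used here give no name. Rows without a symbol (17 in all) kept their identifier.

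Each tissue was fitted over its 24 libraries with edgeR 4.0.16 in R 4.3.3 (quasi-likelihood test, TMM scaling, and filterByExpr with a minimum count of 10 and a minimum total of 15), leaving 14382 genes in microglia and 18271 in cord. Differences between tissues used all 48 libraries (19110 genes). Benjamini-Hochberg adjustment ran over all genes tested, with calls at an adjusted p under 0.05. Correlations used log2 CPM with a prior count of 1. Groups and replicate numbers came from the labels. All 168 pairs of libraries within groups differed by more than sampling noise. The fits of old against young were tested on simulated data. In microglia they recovered 34.4% of changes of 0.5 and 69.8% of changes of 1 on the log2 scale. In cord they recovered 53.5% and 89.9%. False calls were 3 among 13810 genes in microglia and 6 among 18117 in cord. A member that did not pass may thus have changed.

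The members, the gene lists, the rule for named genes (all members, up to 4 genes per list by smallest adjusted p, and the 5 genes per tissue most alike in pattern) and the tests were chosen with earlier results of these data known. Alternatives were DESeq2 1.42.0 (its size factors in edgeR, and its Wald test), total-count scaling, no low-count filter, limma 3.58.1 with a pseudocount of 1 or 0.1 on TPM, a block for the replicate number, fits of only the groups compared, and each library left out in turn. Leaving out old microglia replicates 2 and 7 together was chosen after seeing the data. A member that was not called in either analysis and changed sign was counted apart. Words of 50 bases were compared over GENCODE transcripts. No sequence is shown for Iigp1. One gene that the rule for named genes picks is not reported here.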

Additional observations from a re-analysis of the deposited data

Results flagged for a closer look

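In 10 of 60 sets of 8 libraries 1 library stood far from the others of its group by Dixon's test at the 95% level (0.526 for 8 libraries). Chance gives about 1 in 20 where values are normal and sets independent. The test ran on CPM without a log, and the sets share libraries and co-varying genes. The count is thus no measure of excess over chance. In repopulated microglia these were replicate 1 for Gbp2 (75.6 CPM) and for Gbp6 (11 CPM). In repopulated cord they were replicate 1 for Gbp4 (46.9 CPM) and for Gbp5 (23.9 CPM). In old microglia they were replicate 7 for Gbp5 (35.9 CPM) and replicate 1 for Igtp (99.5 CPM), and in old cord replicate 3 for Igtp (22.1 CPM). In the young groups they were microglia replicate 2 for Gbp3 (21.4 CPM) and cord replicate 5 for Gbp5 (9.77 CPM) and for Irgm1 (22.1 CPM). Each was the highest library of its group.

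The change differed between microglia and cord (microglia minus cord, log2, interaction contrast in edgeR) in 14 cases. For old against young these were Gbp5 (-0.61), Gbp6 (1.84), Gbp7 (-0.79), Gbp9 (-0.62) and Iigp1 (1.96). For repopulated against old they were Gbp5 (-0.74), Gbp7 (-0.64) and Igtp (-0.97). For repopulated against young they were Gbp3 (-0.73), Gbp5 (-1.35), Gbp6 (1.64), Gbp7 (-1.43), Gbp9 (-0.80) and Igtp (-1.24). Over all genes the medians of these contrasts were -0.15, -0.1 and -0.27, in that order.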

How the results depend on the processing

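Of the alternative values of single members, 1971 kept their direction and side of the threshold, 33 were called in neither analysis but changed sign or came to 0, 69 lost the call, 35 gained it and 2 reversed, both for Igtp in repopulated against young microglia (-0.24 on log2(TPM + 1) and -0.25 on log2(TPM + 0.1)). The causes were not tested. With limma on log2(TPM + 1) and log2(TPM + 0.1), in that order, genes called were 4779 and 4643 for repopulated against old microglia, 7378 and 7478 for repopulated against young microglia, 13 and 12 for repopulated against old cord and 1030 and 1003 for repopulated against young cord, and members called were 0 and 0 for old against young cord and 1 and 1 for repopulated against old cord. With only the groups compared, old against young cord had 5 members and 1844 genes and repopulated against young cord 1211 genes. The DESeq2 Wald test called 7 members and 66 genes for repopulated against old cord. For old against young between tissues, DESeq2 size factors, total-count scaling and no low-count filter each gave 3 members, and total-count scaling gave 5 for repopulated against old.

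Leaving out 1 library at a time gave 4 to 6 members and 2658 to 3281 genes for old against young microglia, 2 members and 2009 to 2599 genes for repopulated against old, and 6 to 7 members and 4290 to 4772 genes for repopulated against young. In cord it gave 0 (without old replicate 3) to 4 members and 943 to 2109 genes (the last without repopulated replicate 6) for old against young, 2 to 7 members and 16 to 57 genes (7 and 57 without repopulated replicate 7) for repopulated against old, and 10 members and 1507 to 2561 genes for repopulated against young.

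Deviations of libraries with the same replicate number had a median r of 0.02 in microglia and 0 in cord, where pairs ran from -0.49 to 0.43. Such medians cannot settle whether the numbers pair the samples. The main fits did not treat them as pairs. With the replicate block 1 member was called for old against young cord, and 3 of 100 member results changed their call.

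Higher and lower calls split as 592 and 2779 under total-count scaling and 495 and 4284 with limma on log2(TPM + 1) in repopulated against old microglia, where edgeR with TMM gave 1301 and 1035. They split as 1740 and 3735 and as 1237 and 6141 in repopulated against young microglia, where TMM gave 2321 and 2377. The same limma analysis called 1 member higher and 2 lower in repopulated against old microglia, where TMM gave 2 higher, and 5 higher and 3 lower in repopulated against young microglia. For old against young microglia DESeq2 size factors gave 1709 and 1099 and limma on log2(TPM + 0.1) 1355 and 2073, where TMM gave 1587 and 1541, and for repopulated against young cord total-count scaling gave 1522 and 276, where TMM gave 1331 and 508. Gbp4 in microglia and Ifng in both tissues rest on few reads, which limits their precision.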
